A study of Rattus norvegicus with 12 samples.

Results

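The Cyp2c genes encode cytochrome P450 enzymes of subfamily 2C, a large group of drug- and steroid-oxidizing enzymes of rat liver. The 8 genes described here were chosen by symbol (Cyp2c6v1, Cyp2c7, Cyp2c11, Cyp2c12, Cyp2c13, Cyp2c22, Cyp2c23 and Cyp2c24), and their probes were found by matching the transcript accession of each probe to a table of rat gene names. They were 8 of 20359 genes or transcripts tested, of which 10685 had a symbol. All 8 were measured, by 13 probes, and each of the 13 probes was well above background on all 12 arrays. A single probe measured each of 6 genes, while Cyp2c7 had 5 probes and Cyp2c12 had 2. The name table lists 9 more symbols that begin with Cyp2c, and 0 of them had a matched probe.

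One-colour Agilent arrays were used to measure RNA of primary hepatocytes, isolated liver cells that had been cryopreserved and came from Sprague Dawley males. The cells were held in culture for 24 h and then kept for a further 24 h with 30 µM triclosan, 30 µM diclosan, 30 µM CCPB (1-chloro-3-(4-chlorophenoxy) benzene) or the vehicle DMSO, with 3 arrays in each of the 4 groups. The labels describe the arrays of a group as independent experiments. They do not give the age of the animals or say whether the experiments used cells of different animals, so the p-values measure the spread between these experiments. Triclosan, an antibacterial agent, is a chlorinated diphenyl ether that bears a phenolic hydroxyl group. Diclosan is the same phenol with fewer chlorine atoms. CCPB lacks the hydroxyl group, and a chlorine atom that is para to the ether oxygen in diclosan is meta to it in CCPB, so it differs from diclosan in more than a single feature.

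P450 enzymes of this subfamily sit in the endoplasmic reticulum and take electrons from cytochrome P450 reductase to insert an oxygen atom into drugs, steroids, retinoids and fatty acids. In rat liver, some members are set by sex, because the pulsatile growth hormone of males and the steadier growth hormone of females switch different genes on. Others answer to foreign chemicals through the nuclear receptors CAR (gene Nr1i3) and PXR (gene Nr1i2), which bind DNA as partners of the retinoid X receptor. Cultured hepatocytes are known to lose part of their P450 expression with time, and the culture lacks the animal's own hormone pattern.

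The arrays came from 2 slides. On slide 1 were the 3 triclosan arrays, diclosan arrays 1 and 2 and the 3 DMSO arrays, and on slide 2 were diclosan array 3 and the 3 CCPB arrays. CCPB therefore shared no slide with triclosan or DMSO, and comparisons with CCPB were also fitted with slide as a block. In that fit the slide effect is estimated from the diclosan arrays alone. Without the block, CCPB and slide cannot be told apart when CCPB is set against DMSO or triclosan. Between 51.6% and 55.5% of the probes on an array were well above background. All 8 hepatocyte markers, among them Alb and Ttr, were above background in every group, and their summed linear level lay between 2022 and 2192 times the arrays' 75th percentile. The summed level was 0.741 to 1.26 for 6 macrophage markers, 0.352 to 0.716 for 5 stellate cell and fibroblast markers and 0.0652 to 0.166 for 4 endothelial markers. With CCPB 3 hepatocyte markers were called higher and 1 lower than with DMSO, by -0.19 to 0.18 over the 8. In that comparison 28.3% of all genes were called. With the slide block 1 hepatocyte marker was higher and 0 lower, where 3.46% of all genes were called. Marco, Pecam1, Lyve1 and Krt19 were not above background in any group. The 4 cholangiocyte markers summed to 3.53 to 3.60 on CCPB arrays, all on slide 2, against 2.79 to 2.98 on DMSO arrays, all on slide 1. Of the 3 that were tested, 2 were called higher with CCPB than with DMSO, and 0 with the slide block. The part of these markers in the results below was not tested. Levels are in total RNA of a culture, so a change in the number of cells of a type and a change in RNA per cell cannot be told apart.

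All 8 genes lie on chromosome 1 in the table of rat genes, in the order Cyp2c11, Cyp2c24, Cyp2c6v1, Cyp2c7, Cyp2c12, Cyp2c13, Cyp2c22 and Cyp2c23. Cyp2c11 and Cyp2c24 are next to each other with 0 listed genes between them, as are Cyp2c12 and Cyp2c13, while 81 listed genes separate Cyp2c23 from Cyp2c22. Promoter windows of 300 bases (250 before and 50 after the start of the gene) were taken from RefSeq, build GRCr8. They were matched for 7 of the 8 genes. Cyp2c6v1 had no window and was not searched. Over the 21 pairs of windows, alignment identity ran from 38.2% to 63.8% with a median of 44.1%. The closest pairs were the neighbours Cyp2c12 and Cyp2c13 (63.8%) and Cyp2c11 and Cyp2c24 (62.9%).

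Windows are shown for 3 genes that were higher with CCPB (Cyp2c7, Cyp2c22 and Cyp2c24) and for Cyp2c11, the close partner of Cyp2c24 that was lower. They run from 5′ to 3′ on the strand of the gene. Capitals mark 3 sets of letters searched on both strands: TATAAA, the core of the TATA box, and AGGTCA and AGTTCA, half-sites at which nuclear receptors can bind. The windows lie at chr1:247966144-247966443 (plus strand, Cyp2c7), chr1:248980718-248981017 (minus strand, Cyp2c22), chr1:246286091-246286390 (plus strand, Cyp2c24) and chr1:246174966-246175265 (plus strand, Cyp2c11).
Cyp2c7: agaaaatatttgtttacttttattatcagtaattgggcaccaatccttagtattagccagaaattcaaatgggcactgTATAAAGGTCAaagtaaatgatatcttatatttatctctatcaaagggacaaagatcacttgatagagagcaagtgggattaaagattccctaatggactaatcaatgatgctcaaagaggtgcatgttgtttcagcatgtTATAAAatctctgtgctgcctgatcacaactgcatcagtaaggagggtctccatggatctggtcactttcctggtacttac
Cyp2c22: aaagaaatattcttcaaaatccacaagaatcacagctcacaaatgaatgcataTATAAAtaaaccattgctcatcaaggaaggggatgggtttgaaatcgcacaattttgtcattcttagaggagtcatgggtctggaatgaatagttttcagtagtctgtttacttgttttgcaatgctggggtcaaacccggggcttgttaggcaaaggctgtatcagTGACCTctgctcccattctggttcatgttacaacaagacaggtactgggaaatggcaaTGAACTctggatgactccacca
Cyp2c24: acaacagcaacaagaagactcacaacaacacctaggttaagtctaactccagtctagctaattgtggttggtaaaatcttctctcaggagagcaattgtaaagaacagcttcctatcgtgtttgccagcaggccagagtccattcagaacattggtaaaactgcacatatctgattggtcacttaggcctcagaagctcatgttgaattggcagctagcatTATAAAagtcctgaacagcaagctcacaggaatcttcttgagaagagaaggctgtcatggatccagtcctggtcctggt
Cyp2c11: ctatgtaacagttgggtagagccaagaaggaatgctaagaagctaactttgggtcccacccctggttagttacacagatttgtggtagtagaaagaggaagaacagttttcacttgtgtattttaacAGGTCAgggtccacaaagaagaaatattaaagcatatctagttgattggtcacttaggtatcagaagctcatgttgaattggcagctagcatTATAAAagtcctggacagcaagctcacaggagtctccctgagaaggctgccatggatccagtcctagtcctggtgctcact
TATAAA was in 6 of the 7 windows, against 14.2% of all 33469 promoter windows in the table, and Cyp2c23 was the window without it. On the gene's own strand it began 31 bases before the start in Cyp2c7 and Cyp2c11 and 29 bases before it in Cyp2c24, and in Cyp2c22 it began 197 bases before. AGGTCA was in 3 of the 7 windows (Cyp2c7, Cyp2c11 and Cyp2c22) and in 16.2% of all windows, and AGTTCA was in 3 (Cyp2c12, Cyp2c13 and Cyp2c22) and in 14.5% of all windows. Cyp2c7, which was higher with CCPB, and Cyp2c11, which was lower, both hold TATAAA and AGGTCA, and Cyp2c24 holds TATAAA alone. In Cyp2c7 another TATAAA, which begins 172 bases before the start, shares its last base with AGGTCA. A match shows that these letters are present and no more.

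The first question was which Cyp2c transcripts differed between CCPB and its vehicle. Levels are log2 values relative to the 75th percentile of each array, and differences were tested with limma over all 20359 genes or transcripts with Benjamini-Hochberg adjustment, a gene being called at an adjusted p under 0.05. Cyp2c6v1, Cyp2c22, Cyp2c7 and Cyp2c24 were higher with CCPB than with DMSO, and Cyp2c23 and Cyp2c11 were lower. This is 6 of 8 genes in a comparison in which 28.3% of all genes were called. With the slide as a block 2 of 8 were called, Cyp2c6v1 and Cyp2c7, where 3.46% of all genes were. The median difference of the 8 genes was 0.27, and that of all genes tested was 0.0054. The CCPB arrays lay wholly above or below the DMSO arrays for 7 of the 8 genes, and for 50.1% of all genes.

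**Figure D1:**
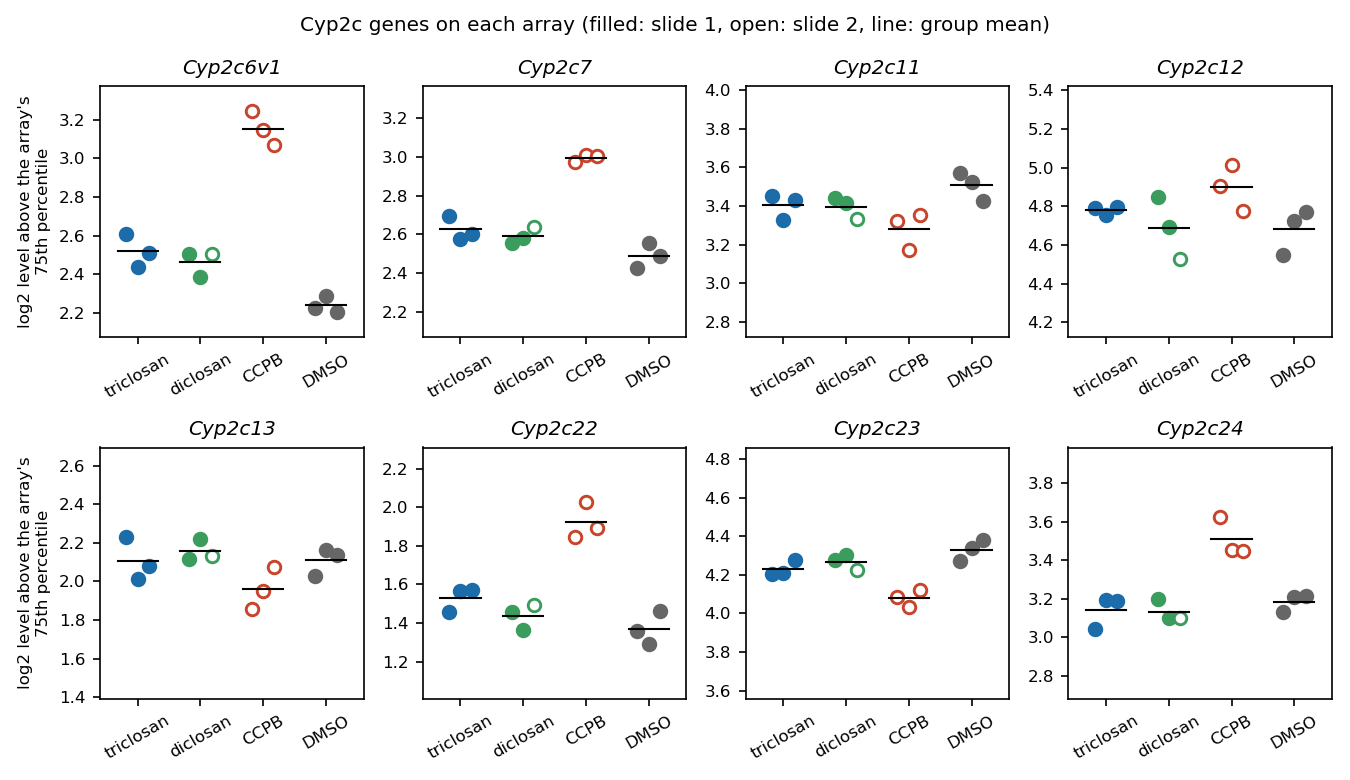
Level of each Cyp2c gene on each array (y axis, log2 level relative to the array's 75th percentile, each panel spanning the same range) by group, with filled points for slide 1, open points for slide 2 and a line at the group mean of 3 arrays. The CCPB points of Cyp2c6v1, at 3.07 to 3.25, stand above every other array, and the open diclosan point on slide 2, at 2.51, lies with the other diclosan points.

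Cyp2c6v1 encodes an enzyme of both sexes that is known to be induced in rat liver by phenobarbital, an activator of CAR. Its level was 2.61, 2.44 and 2.51 on triclosan arrays, 2.51, 2.38 and 2.51 on diclosan arrays, 3.25, 3.15 and 3.07 on CCPB arrays and 2.23, 2.29 and 2.20 on DMSO arrays. The CCPB arrays were the highest, the triclosan and diclosan arrays overlapped each other in the middle, and the DMSO arrays lay below all others. The CCPB mean was 3.15 ± 0.089 and the DMSO mean 2.24 ± 0.044 (SD, n = 3 each). Cyp2c6v1 was 0.92 higher with CCPB on the log2 scale (95% interval 0.78 to 1.05, limma adjusted p = 1.90e-05), or 1.89-fold. The slide block gave a difference of 0.85 (limma adjusted p = 0.0073). Diclosan array 3, which shared slide 2 with CCPB, lay 0.06 from the mean of the other diclosan arrays, and the CCPB mean was 0.65 above it.

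Cyp2c7 encodes an enzyme that hydroxylates retinoic acid and is known to be more abundant in female than in male rat liver. The brightest of its probes read 2.70, 2.58 and 2.60 on triclosan arrays, 2.55, 2.58 and 2.64 on diclosan arrays, 2.98, 3.01 and 3.01 on CCPB arrays and 2.43, 2.55 and 2.49 on DMSO arrays. The 3 CCPB arrays lay close together and above all others, while diclosan and DMSO arrays met at their edges. With CCPB Cyp2c7 was higher than with DMSO by 0.51 (95% interval 0.41 to 0.61, limma adjusted p = 7.85e-05), or 1.42-fold. Blocked by slide, it was 0.44 higher (limma adjusted p = 0.0215). Within slide 2 the CCPB mean was 0.36 above diclosan array 3.

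Cyp2c22 is listed in the name table also as Cyp2c70, and the mouse enzyme Cyp2c70 makes muricholic bile acids. Its level was 1.45, 1.56 and 1.57 on triclosan arrays, 1.46, 1.37 and 1.49 on diclosan arrays, 1.84, 2.03 and 1.89 on CCPB arrays and 1.36, 1.29 and 1.46 on DMSO arrays. CCPB arrays stood apart at the top, and the other 3 groups overlapped. The difference of CCPB from DMSO was 0.55 (95% interval 0.41 to 0.69, limma adjusted p = 0.000349), or 1.46-fold. In the fit blocked by slide it was 0.47 and missed the threshold (limma adjusted p = 0.0639).

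Cyp2c24 read 3.04, 3.19 and 3.19 on triclosan arrays, 3.20, 3.10 and 3.10 on diclosan arrays, 3.63, 3.45 and 3.45 on CCPB arrays and 3.13, 3.21 and 3.21 on DMSO arrays. Here triclosan, diclosan and DMSO formed a single overlapping range, and CCPB alone lay above it. With CCPB Cyp2c24 was higher than with DMSO by 0.33 (95% interval 0.19 to 0.46, limma adjusted p = 0.00452), or 1.25-fold. The slide block gave 0.37, past no threshold (limma adjusted p = 0.116).

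Cyp2c23 encodes an arachidonic acid epoxygenase that is prominent in rat kidney as well as liver. Its level was 4.21, 4.21 and 4.28 on triclosan arrays, 4.28, 4.30 and 4.22 on diclosan arrays, 4.09, 4.04 and 4.12 on CCPB arrays and 4.27, 4.34 and 4.38 on DMSO arrays. CCPB arrays were lowest, triclosan and diclosan arrays overlapped, and both overlapped the lower edge of DMSO. With CCPB the transcript fell by 0.25 on the log2 scale (95% interval -0.34 to -0.16, limma adjusted p = 0.0025), or 0.841-fold. Under the slide block the difference was -0.18 (limma adjusted p = 0.214).

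Cyp2c11 encodes the main male-specific P450 of rat liver, a testosterone hydroxylase whose gene depends on pulsatile growth hormone and the factor STAT5b. It read 3.45, 3.33 and 3.43 on triclosan arrays, 3.44, 3.41 and 3.33 on diclosan arrays, 3.32, 3.17 and 3.35 on CCPB arrays and 3.57, 3.52 and 3.43 on DMSO arrays. The CCPB arrays lay below the DMSO arrays and overlapped those of the other compounds. With CCPB the transcript fell by 0.23 (95% interval -0.36 to -0.09, limma adjusted p = 0.0213), or 0.855-fold. The call was lost when CCPB array 2, DMSO array 1 or DMSO array 2 was left out (limma adjusted p = 0.07, 0.0725 and 0.0629) and with the slide block, where the difference was -0.13 (limma adjusted p = 0.572).

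Cyp2c13, another male-specific enzyme, was not called in any of the 6 comparisons of the main fit. It read 2.23, 2.01 and 2.08 on triclosan arrays, 2.12, 2.22 and 2.13 on diclosan arrays, 1.86, 1.95 and 2.08 on CCPB arrays and 2.03, 2.16 and 2.13 on DMSO arrays. CCPB held the 2 lowest arrays but overlapped DMSO, and its difference from DMSO was -0.15 (95% interval -0.30 to 0.01, limma adjusted p = 0.139).

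Cyp2c12 encodes the female-specific steroid sulfate hydroxylase of rat liver, and its probes were well above background on all 12 arrays of these male cells. The brighter probe read 4.79, 4.76 and 4.80 on triclosan arrays, 4.85, 4.69 and 4.53 on diclosan arrays, 4.91, 5.02 and 4.78 on CCPB arrays and 4.55, 4.72 and 4.77 on DMSO arrays. CCPB arrays were just above the highest DMSO array and overlapped triclosan and diclosan. Its difference between CCPB and DMSO was 0.22 (95% interval 0.02 to 0.42, limma adjusted p = 0.0921). With the slide block it was 0.46 (limma adjusted p = 0.114). Diclosan array 3 on slide 2 read 0.24 below the mean of the other diclosan arrays, the widest such gap among the 8 genes.

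The probes of Cyp2c12 did not give the same call without the slide block. When every probe was tested on its own, the dimmer Cyp2c12 probe was 0.52 higher with CCPB than with DMSO (limma adjusted p = 0.00122), while the brighter probe was not called (limma adjusted p = 0.0946). The dimmer probe read 2.67, 2.77 and 2.52 on CCPB arrays, against 2.05, 2.18 and 2.18 on DMSO arrays, with no overlap. Blocked by slide, the dimmer probe differed by 0.56 (limma adjusted p = 0.0728) and the brighter by 0.46 (limma adjusted p = 0.118), and neither was called. All 5 probes of Cyp2c7 were called higher with CCPB, by 0.30 to 0.63, with limma adjusted p from 8.47e-05 to 0.0368. The slide block left 2 of the 5 called (limma adjusted p = 0.0231 and 0.0396), with differences of 0.02 to 0.44, and the probe at 0.02 was the one at 0.30 without the block. Among the Cyp2c7 probes the triclosan difference ran from -0.09 to 0.17 and the diclosan difference from 0.03 to 0.17, and 0 of 5 were called with either. Cyp2c transcripts are close relatives and the scanner files hold no probe sequences, so binding of related transcripts to a probe was not tested.

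**Figure D2:**
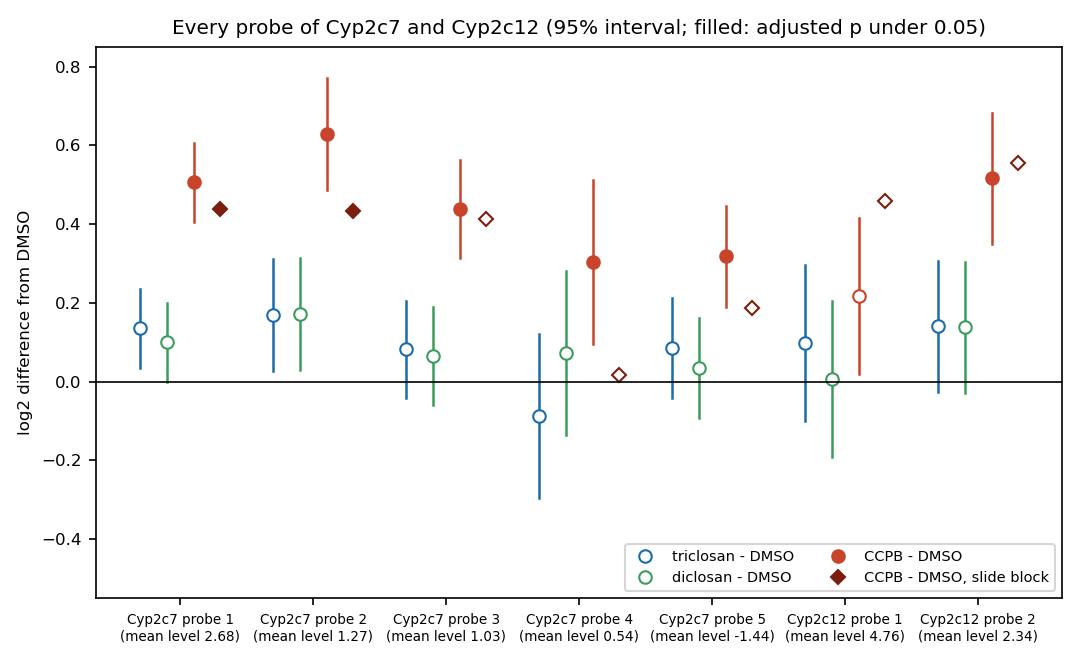
Difference from DMSO (y axis, log2) for each probe of Cyp2c7 and Cyp2c12, with 95% intervals, probes of a gene ordered by mean level over the 12 arrays and filled points for a limma adjusted p under 0.05. The 5 Cyp2c7 probes are filled for CCPB at 0.30 to 0.63, and of the Cyp2c12 probes the dimmer is filled at 0.52 and the brighter is open at 0.22. Diamonds give CCPB with the slide as a block (no interval drawn), where 2 Cyp2c7 probes and neither Cyp2c12 probe are filled.

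The next question was whether triclosan and diclosan, which carry the hydroxyl group, moved the same genes relative to DMSO. These comparisons and that of CCPB share the same 3 DMSO arrays, so they are not independent of each other. With triclosan 0 of 8 genes were called, in a comparison in which 0.0639% of all genes were. At an unadjusted p under 0.05 there were 4 genes, Cyp2c6v1, Cyp2c7, Cyp2c22 and Cyp2c23, and 11.6% of all genes passed that unadjusted threshold. The triclosan arrays lay wholly above the DMSO arrays for 2 of the 8, Cyp2c6v1 and Cyp2c7, while 19% of all genes had no overlap in either direction. Cyp2c6v1 differed by 0.28 (95% interval 0.15 to 0.41, limma adjusted p = 0.145), or 1.21-fold. Cyp2c7 differed by 0.14 (0.04 to 0.24, limma adjusted p = 0.29) and Cyp2c22 by 0.16 (0.02 to 0.30, limma adjusted p = 0.376). Cyp2c23 differed by -0.10 (-0.19 to -0.01, limma adjusted p = 0.405). The other differences were -0.10 for Cyp2c11, 0.10 for Cyp2c12, -0.0012 for Cyp2c13 and -0.04 for Cyp2c24.

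With diclosan 0 of 8 genes were called, where 0.00982% of all genes were, and 2 of 8, Cyp2c6v1 and Cyp2c7, had an unadjusted p under 0.05, as did 10.6% of all genes. Cyp2c6v1 was the single gene whose diclosan arrays lay wholly above the DMSO arrays, against 16.1% of all genes without overlap in either direction. It differed by 0.23 (95% interval 0.09 to 0.36, limma adjusted p = 0.26), or 1.17-fold, and Cyp2c7 differed by 0.10 (0.00074 to 0.20, limma adjusted p = 0.47). With the slide block, which here leaves the arrays of slide 1, Cyp2c6v1 differed by 0.21 (limma adjusted p = 0.384). Without the block the remaining 6 genes differed from DMSO by -0.11 to 0.07. The 95% intervals of triclosan and diclosan for Cyp2c6v1 end at 0.41 and 0.36, below the start of the CCPB interval at 0.78.

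**Figure D3:**
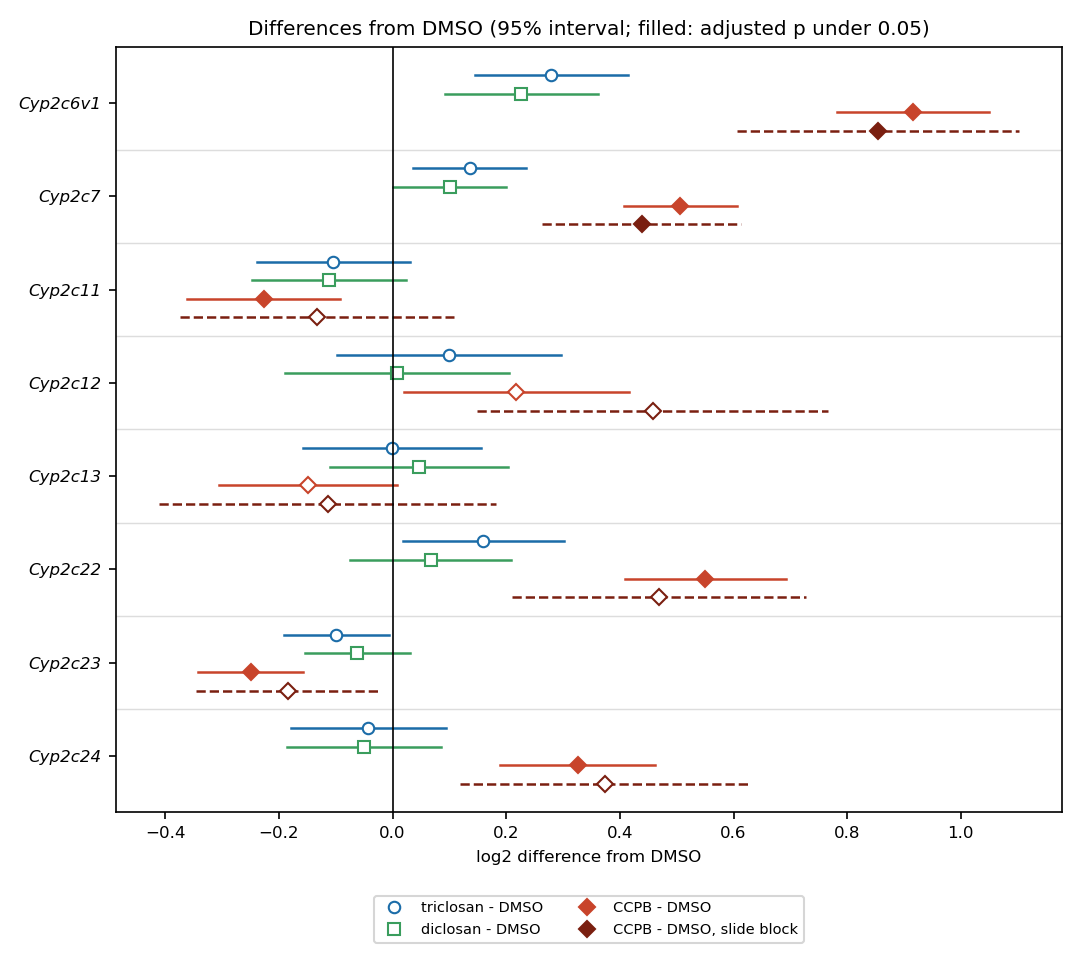
Difference of each compound from DMSO for the 8 Cyp2c genes (x axis, log2 difference, with 95% intervals), with dashed lines for CCPB with the slide as a block and filled symbols for a limma adjusted p under 0.05. Filled CCPB symbols run from -0.25 for Cyp2c23 to 0.92 for Cyp2c6v1, with the slide block Cyp2c6v1 and Cyp2c7 are filled, and no triclosan or diclosan symbol is filled.

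The compounds were also set against each other at the same dose and time, in 3 pairs. For each pair the p-values were adjusted over all genes tested, and no further adjustment over the 3 pairs was made. Against CCPB, triclosan gave a lower level of Cyp2c6v1, Cyp2c22, Cyp2c7 and Cyp2c24 and a higher level of Cyp2c23, which is 5 of 8 genes where 20.5% of all genes were called. Cyp2c6v1 was 0.64 lower with triclosan than with CCPB (difference -0.64, 95% interval -0.77 to -0.50, limma adjusted p = 0.000263). Cyp2c22, Cyp2c7 and Cyp2c24 had differences of -0.39, -0.37 and -0.37 (limma adjusted p = 0.00363, 0.000843 and 0.0039). Cyp2c23 had a difference of 0.15 (limma adjusted p = 0.0319). With the slide block 1 of 8 was called, where 1.41% of all genes were, and this was Cyp2c6v1 with a difference of -0.57 (limma adjusted p = 0.0454).

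Diclosan is the compound that shares a slide with CCPB, by diclosan array 3. Diclosan gave a lower level of the same 4 genes and a higher level of Cyp2c23, again 5 of 8, where 14.4% of all genes were called. The differences were -0.69 for Cyp2c6v1 (95% interval -0.82 to -0.55, limma adjusted p = 0.000138), -0.48 for Cyp2c22, -0.41 for Cyp2c7 and -0.38 for Cyp2c24 (limma adjusted p = 0.0012, 0.00044 and 0.00365). Cyp2c23 differed by 0.19 (limma adjusted p = 0.0153). With the slide block 4 of 8 were called, where 4.95% of all genes were: Cyp2c6v1 by -0.65, Cyp2c22 by -0.43, Cyp2c24 by -0.41 and Cyp2c7 by -0.36 (limma adjusted p = 0.00512, 0.0304, 0.0348 and 0.0128). These blocked values equal the gap between diclosan array 3 and the CCPB mean on slide 2, so they rest on a single diclosan array. With only the arrays of slide 2 in the fit the differences are the same by design, such as -0.65 for Cyp2c6v1. They are therefore no separate support for the blocked values. That fit holds a lone diclosan array, assumed to vary like the CCPB arrays. With replicate and slide both as blocks Cyp2c6v1 alone was called, where 569 of 20359 genes were. Both comparisons with CCPB use the same 3 CCPB arrays.

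Between triclosan and diclosan 0 of 8 genes were called and 0% of all genes were. At an unadjusted p under 0.05 there were 0 of 8 in this pair, against 6.83% of all genes, and the arrays overlapped for all 8. Cyp2c6v1 differed by 0.05, with an interval of -0.08 to 0.19, and Cyp2c7 by 0.04 (-0.06 to 0.13). The widest interval was that of Cyp2c12, at 0.09 (-0.11 to 0.29). These compounds differ in chlorine atoms, and for these transcripts a difference between them was not detectable with 3 arrays a group, within the intervals given. Diclosan and CCPB differ in both the hydroxyl group and a chlorine position, and the parts of these changes in the differences above cannot be told apart.

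**Figure D4:**
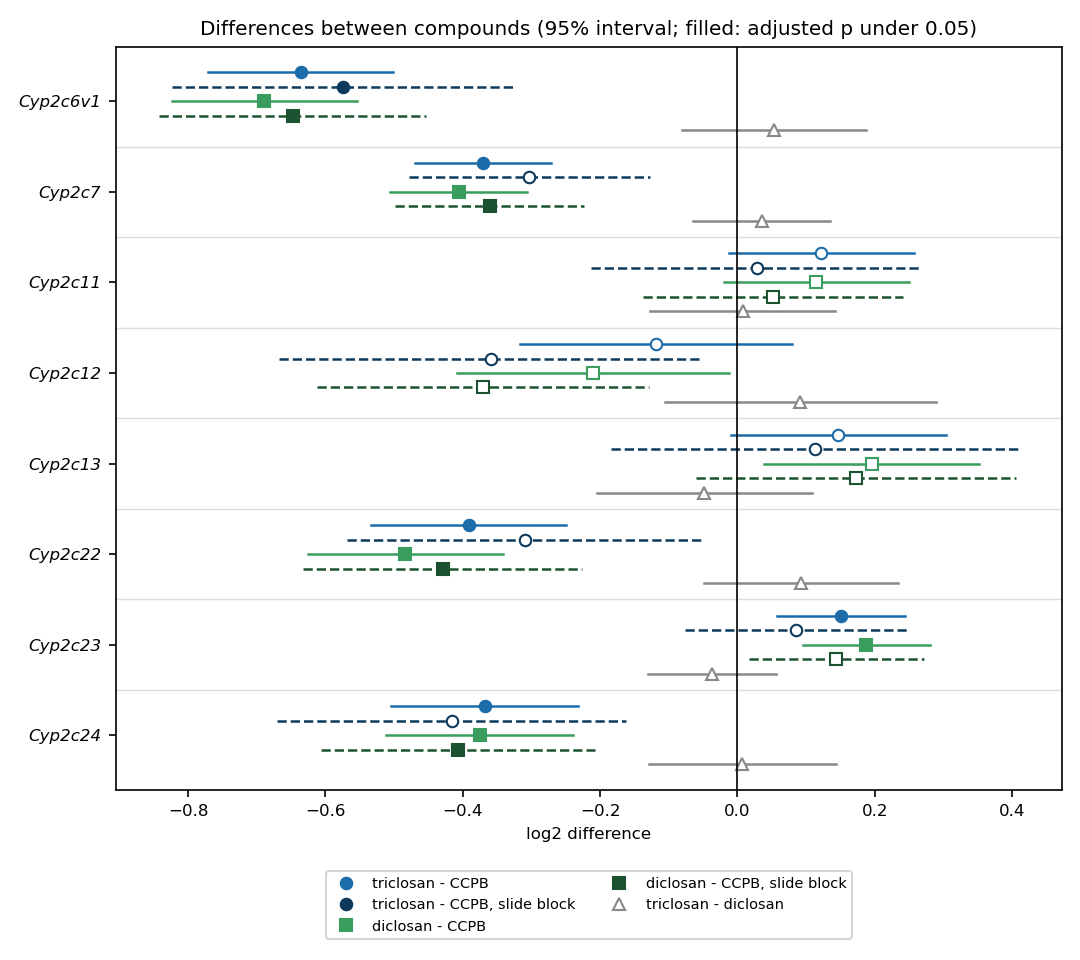
Differences between compounds for the 8 Cyp2c genes (x axis, log2 difference, with 95% intervals), with dashed lines for the slide as a block and filled symbols for a limma adjusted p under 0.05. Cyp2c6v1 lies at -0.64 and -0.69 for triclosan and diclosan against CCPB, and the grey triangles of triclosan against diclosan are all open, between -0.05 and 0.09.

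The other P450 genes gave a scale for these values. Of 46 other P450 genes tested, 13 were higher and 4 lower with CCPB than with DMSO, where 28.3% of all genes were called. The median difference of the 46 was 0.06, with a range from -2.64 to 1.83. Under the slide block 8 were higher and 0 lower, where 3.46% of all genes were called. Cyp2b2, the phenobarbital-inducible P450 of rat liver, differed by 1.83 (limma adjusted p = 8.69e-05) and was the single other P450 with a larger positive difference than Cyp2c6v1. Cyp17a1, an enzyme of steroid synthesis, rose by 0.76, Cyp4a3, a fatty acid hydroxylase, by 0.62 and Cyp3a62 by 0.58. With triclosan and with diclosan 0 of the 46 were called, where 0.0639% and 0.00982% of all genes were.

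**Figure D5:**
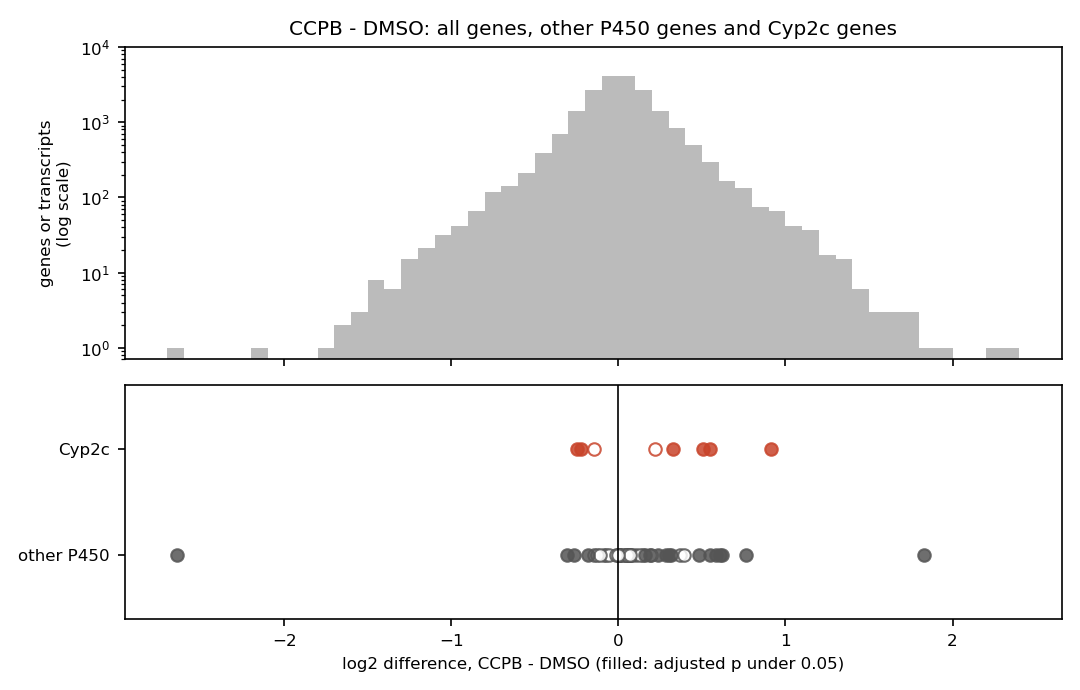
Differences between CCPB and DMSO (x axis, log2), as a histogram of all 20359 genes or transcripts (upper panel, number on a log scale) and as points for the 8 Cyp2c genes and 46 other P450 genes (lower panel), filled for a limma adjusted p under 0.05. The Cyp2c points run from -0.25 to 0.92, inside the range of the other P450 genes of -2.64 to 1.83.

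Genes that control Cyp2c transcription or share its regulators were followed as lists. The counts stand beside 28.3% of all genes called in CCPB against DMSO, and 3.46% with the slide block. Of 12 tested regulators, 5 were higher and 1 lower with CCPB than with DMSO, and with the slide block 4 and 0. Nr0b2, the gene of the repressor SHP, rose by 2.25, Nr1i3, the gene of CAR, by 0.81 and Nr1i2, the gene of PXR, by 0.27 (limma adjusted p = 1.24e-05, 0.0002 and 0.0027). Nr0b2 was also the single gene of all these lists called with triclosan, by 2.09, and with diclosan, by 1.80 (limma adjusted p = 0.000309 and 0.00131). Of 14 tested CAR and PXR targets outside the family, 9 were higher and 1 lower with CCPB, with a median of 0.29, and with the slide block 5 were higher and 1 lower. Cyp3a18 rose by 0.55 and Alas1, which starts the synthesis of the heme that every P450 carries, by 0.35, and Aldh1a1, a retinaldehyde dehydrogenase, fell by 0.37. Of 5 tested genes of electron supply, 2 rose: Por, the P450 reductase, by 0.40 and Cyb5a, cytochrome b5, by 0.33, and 1 was called with the slide block.

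Further lists bear on sex and on arachidonic acid, and the same shares of all genes, 28.3% and 3.46% with the slide block, apply. Of 9 genes of growth hormone signalling 2 were higher and 3 lower with CCPB, and 0 were called with the slide block. The receptor Ghr rose by 0.26 and its feedback inhibitor Socs2 by 0.24, while the growth factor gene Igf1 fell by 0.16 and Bcl6, a repressor, fell by 0.34. Of 4 male-biased genes outside the family Cyp3a18 was called, also with the slide block, and of 3 female-biased genes Cyp2a1 was called, by 0.30, but not with the slide block. Of 9 genes of arachidonic acid metabolism outside the family 5 were higher and 0 lower with CCPB, and 2 were higher with the slide block, Cyp4a3 and Cyp4a1. The 5 included Cyp4a3 and Cyp4a1, fatty acid hydroxylases, by 0.62 and 0.32, Ephx2, the soluble epoxide hydrolase, by 0.40 and Cyp2j4, an epoxygenase, by 0.28. Ephx2 and Cyp2j4 were not called with the slide block (limma adjusted p = 0.111 and 0.148), nor was Cyp2c23.

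Over the 12 arrays the levels of the 8 genes went partly together. The pair with the highest correlation was Cyp2c6v1 and Cyp2c7 (Pearson r = 0.977), and the pair with the lowest was Cyp2c6v1 and Cyp2c23 (r = -0.93). With each group's mean removed these values were 0.43 and -0.31, and the pooled values include the differences between the groups and between the slides. The genes outside the family whose levels were most like those of a member, by the same measure over the 12 arrays, were Cyp2b2 for Cyp2c6v1 (r = 0.984, and 0.725 with group means removed) and Nr1i3 for Cyp2c7 (r = 0.989 and 0.901). For Cyp2c22 it was Cpt1b (r = 0.964 and 0.739), for Cyp2c24 Afmid (r = 0.951 and 0.753), and for Cyp2c11 Zbtb5 (r = 0.928 and 0.808). For Cyp2c13 it was Serpina3c (r = 0.933 and 0.872), for Cyp2c12 Wbp1l (r = 0.924 and 0.902) and for Cyp2c23 the unnamed locus LOC103691814 (r = 0.949 and 0.811). These are the highest correlations among all named genes, over arrays that share groups and slides, and they are given as descriptions.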

How the data were processed

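Gene expression was measured on 12 arrays, 3 for each of triclosan, diclosan, CCPB and DMSO, grouped by the sample labels. The deposited scanner output gives, per the file headers, linear spot intensity from Agilent Feature Extraction 10.7.1.1, background-subtracted, detrended and not scaled between arrays. A value table that the authors deposited gives the linear signal of each probe, with each array's 75th percentile near 1 (1.001 to 1.004 over the probes used, medians 0.048 to 0.055); the steps behind it are not given in the sources used here, and its log2 values correlated with the scanner's at 0.99994 or more and it served as an alternative. Columns of other samples numbered 0. RNA was labelled with Cy3, per the labels' protocols.

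Each array held 62976 spots for 45598 probes. Control spots were left out, spots of a probe were averaged as log2 intensity, and each array's 75th percentile was subtracted, which assumes that bright transcripts as a whole are stable. Probes that all 3 arrays of some group showed well above background were kept (24254), and the brightest kept probe stood for a gene (20359 genes or transcripts). Accessions were matched to RefSeq names, used to group probes by gene, for names and for gene order. Probes without a match were grouped by accession. A limma fit (version 3.58.1 in R 4.3.3) took in all 12 arrays by group, with 6 two-sided contrasts and Benjamini-Hochberg adjustment over all genes. The median half-width of a 95% interval was 0.145 log2 units, and 0.233 for CCPB against DMSO with the slide block. The number of arrays limits the precision. The fit was tested on simulated data, with and without a shift between slides. No limit on error was set for a shift fitted without the block. Alternatives covered slide, replicate number, background correction, normalization, filter, choice of probe and left-out arrays. The planned background correction used each spot's mean signal; the files hold the median signal, which was used instead. Same-numbered arrays deviated together at correlations of -0.165 to 0.117, with 1 of 18 over 0.1, and other pairs at -0.171 to 0.173. No pairing by number was seen, and so few arrays cannot exclude it. All 8 genes were named, and beside them up to 4 genes of each list by the smallest p and the gene most like each member; some genes that met this rule are not reported here. The genes, lists and tests were chosen with earlier results of these data known.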

Additional observations from a re-analysis of the deposited data

How the results depend on the processing

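The count of Cyp2c genes called against DMSO with CCPB (6) stayed within 5 to 6 as each CCPB or DMSO array was left out. It was 2 under a fixed slide block and 1 with the replicate block and slide block together. Of all 20359 genes, 5757 were called in the main fit, 704 under the slide block and 300 with both blocks. For triclosan against CCPB (5) the range over their own arrays was 4 to 5. It was 1 under the slide block and 0 under the replicate block with slide block. Here 4172 of all genes were called in the main fit, 287 under the slide block and 12 with both blocks. For diclosan against CCPB (5) the count was 4 to 5 with an array left out, 4 under the slide block and 1 under the replicate block with slide block. The main fit called 2925 of all genes, the slide block 1007 and both blocks 569. Slide 2 alone, a setting added after seeing the data, leaves a lone diclosan array, assumed to vary like the CCPB arrays. Its difference for Cyp2c6v1 was -0.65, which by design is the same as under the slide block. That match does not show that the calls hold under this setting. The other 3 comparisons gave 0 under every setting run. Slide 1 alone could not be run for comparisons with CCPB. The replicate block without the slide changed no count by more than 1.5 times.

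Over the 8 Cyp2c genes, all comparisons and all settings, 869 values kept their direction and their side of the threshold. Another 50 lost the call, 4 gained it and 29 changed sign. Cyp2c6v1 was called higher with CCPB than with DMSO under all 20 settings, from 0.79 to 1.00 with limma adjusted p up to 0.0313, and Cyp2c7 under 19 of 20. The Cyp2c11 call was also lost with median centring and without the filter on dim probes (limma adjusted p = 0.0741 and 0.0767). With the mean of all its probes Cyp2c12 was called higher with CCPB than with DMSO, by 0.37 (limma adjusted p = 0.00765). In that setting it was also called for triclosan and diclosan against CCPB, at -0.25 and -0.29 (limma adjusted p = 0.0478 and 0.0309). Cyp2c13 was called for diclosan against CCPB with normexp, at 0.25 (limma adjusted p = 0.0418). The call of Cyp2c23 was kept under 8 of 19 settings for triclosan against CCPB and under 10 of 20 for diclosan against CCPB; leaving out any triclosan array, or CCPB array 1 or 2, ended the first, and leaving out diclosan array 1 or 2 or CCPB array 2 ended the second. The cause of these changes was not tested.

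The sign changes were all in values near 0 that were never called. Cyp2c12 for diclosan against DMSO (0.0075) was -0.0046 with median centring, -0.026 with normexp, -0.0091 with quantile normalization and -0.071 to 0.088 with an array left out. Cyp2c13 for triclosan against DMSO (-0.0012) was 0.0204 with normexp and -0.061 to 0.046 with an array left out, and Cyp2c24 (-0.04) was -0.069 to 0.0074. For triclosan against diclosan, Cyp2c11 (0.0074) was -0.0025 with median centring, -0.027 with the replicate block and slide block, -0.024 on slide 1 alone and when slide was fixed as a block, -0.0042 with the slide as a random block and -0.024 to 0.046 with an array left out. Cyp2c24 (0.0073) was -0.0027 with median centring, -0.012 with the replicate block and slide block, -0.0087 on slide 1 alone and when slide was fixed as a block and -0.018 to 0.057 with an array left out. Cyp2c7 (0.04) was -0.012 with the mean of all probes and -0.00021 to 0.0600 with an array left out.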
